A study of Mus musculus with 25 samples.

Results

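The 35 centromere and kinetochore genes described here were followed in single germ cells of mice that lack YTHDC2, a YTH domain protein with RNA helicase activity. They were taken by symbol from the 14103 genes of the deposited table: every symbol made of Cenp and a further letter, with Ndc80, Nuf2, Spc24, Spc25, Mis12, Dsn1, Nsl1, Pmf1, Zwint, Ska1, Ska2, Ska3, Spdl1 and Incenp. The rule uses symbols and no measured value. The cells were testis cells of postnatal day 10 (P10), sorted for a 4N DNA content. Dividing cells that have copied their DNA have it, and so do spermatocytes in meiotic prophase. Ythdc2 knockouts (KO, 2 libraries, called KO A and KO B) were set against wild type (WT, 1 library). The sources give the hybrid B6D2F1 background (C57BL/6 and DBA/2) for the other mutant lines of the series and describe the KO line only by reference to earlier work. All 3 sample titles combine P10 with the word embryo, and the age label was followed. The sources do not say whether each KO library is from its own animal, and p-values therefore measure a spread between libraries that may be technical. The bulk RNA-seq and iCLIP samples of the series were not analysed here.

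The kinetochore is the protein machine that ties a chromosome to spindle microtubules. It is built in layers on centromeric chromatin marked by the histone variant CENP-A: an inner, constitutive network of CENP proteins, then the Mis12 and Ndc80 complexes, which carry the microtubule contact, and then motors, adaptors and the Ska complex, which join as mitosis proceeds. Spermatogonia build it at every division, whereas a spermatocyte in early meiotic prophase is far from its next division. Spermatocytes of Ythdc2 mutants are known to leave meiotic prophase early for an abnormal, mitosis-like division.

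KO A held 1522 cells and 18102156 UMIs (molecules counted by their barcodes), KO B 1855 cells and 25460154 UMIs, and WT 1151 cells and 16352670 UMIs. The median cell held 9760 UMIs in KO A, 12091 in KO B and 12827 in WT. The median mitochondrial share was 9.11% in KO A and 6.64% in KO B, against 5.59% in WT, and its part in the results was not tested. No cell barcode was shared between libraries. Ythdc2 itself stood at 0.539 and 0.508 normalised UMIs per cell in KO A and KO B, against 2.35 in WT, a log2 difference of -2.15 (limma, adjusted p = 2.64e-13). Clusters are the authors' own, numbered here from 1 to 5: 1 is named by them for undifferentiated and 2 for differentiating spermatogonia, 3 for leptotene-zygotene spermatocytes, and 4 and 5 for a mixture of differentiating spermatogonia and spermatocytes. Cluster 1 held 66 KO A, 90 KO B and 45 WT cells, and cluster 2 held 529 KO A, 814 KO B and 654 WT cells. Cluster 3 held 427 WT cells and no KO cell. Cluster 4 held 592 KO A, 441 KO B and 24 WT cells, and cluster 5 held 335 KO A, 510 KO B and 1 WT cell. Clusters are given by number because cluster 1 also carried myoid markers, at a summed level of 17.7 and 22.2 normalised UMIs per cell in KO A and KO B, against 44.2 in WT. In clusters 2 to 5 that sum lay at or below 0.0808 in every library.

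Across clusters 3, 4 and 5 together, more centromere and kinetochore genes were higher in KO than lower. Of the 35 genes, 18 were called higher in KO and 9 lower, and 8 were not called. A gene was called at a Benjamini-Hochberg adjusted p under 0.05 in limma, fitted on log2 of the mean normalised UMIs per cell over the 9299 genes that passed the filter on low values. All 35 genes passed it. The background was high, with 37.4% of all genes tested called higher and 29.1% called lower, against 51.43% and 25.71% of the 35. The median log2 difference was 0.27 over the 35 genes and 0.08 over all genes tested. This comparison sets clusters as well as genotypes against each other, since cluster 3 held 427 of the 452 WT cells and clusters 4 and 5 held every KO cell. The authors' clusters were made on expression in the same cells, and these genes may have been among those used. The spread was estimated from the KO libraries (1 residual degree of freedom), with the single WT library taken to be as variable. With 1 library against 2 an exact p cannot fall below 0.333, so limma's p-values depend on the variance it borrows from other genes. In these clusters the weight of that borrowed variance (the prior degrees of freedom) was infinite. Each gene's variance therefore came wholly from the trend over all genes, and not from its own 2 KO libraries. The standard errors of the 35 log2 differences ran from 0.10 to 0.23. DESeq2 on the recovered counts called 17 of the 35 in these clusters, 9 higher and 8 lower, with 14.4% and 16.3% of all genes as its background. The 10 genes that limma called and DESeq2 did not were Cenph, Cenpi, Cenpn, Cenpo, Cenpp, Cenpu, Dsn1, Nsl1, Nuf2 and Ska1.

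Among the proteins nearest to centromeric DNA, Cenpa and Cenpb were higher in KO. Cenpa, the histone variant that marks the centromere, had 2.91 and 3.52 normalised UMIs per cell in KO A and KO B, against 1.81 in WT, a 1.78-fold ratio (log2 0.82, SE 0.10, limma adjusted p = 1.31e-14). Cenpb, which binds a short box in centromeric repeats, had 0.0963 and 0.0915 in KO A and KO B, against 0.0315 in WT, so it was low in all 3 libraries and lowest in WT (log2 1.32, SE 0.23, limma adjusted p = 4.49e-08). Cenpv, the remaining gene of this layer, differed by -0.13 on the log2 scale and was not called.

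The constitutive centromere network split in both directions: 8 of its 15 genes were higher in KO, 4 were lower and 3 were not called. Cenpt, a histone-fold protein that recruits the Ndc80 complex, had 0.723 and 0.686 normalised UMIs per cell in KO A and KO B, against 0.244 in WT. Its KO mean was 0.705 ± 0.026 (SD, n = 2), 2.89 times the WT value (log2 1.49, SE 0.13, limma adjusted p = 1.03e-30). The other genes called higher were Cenpu (log2 0.72), Cenpl (0.66), Cenpi (0.51), Cenph (0.48), Cenpn (0.41), Cenpo (0.35) and Cenpp (0.27). These belong to the CENP-L/N, CENP-H/I/K/M and CENP-O/P/Q/U groups of the network, but not every partner in a group moved the same way.

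Cenpq, a partner of CENP-U in the CENP-O/P/Q/U group, had 0.492 and 0.478 normalised UMIs per cell in KO A and KO B, against 1.82 in WT. The KO libraries lay close together and far below WT, with a KO-over-WT ratio of 0.267 (log2 -1.88, SE 0.11, limma adjusted p = 1.57e-61), which was the smallest p of the 35 genes. Cenpw, the histone-fold partner that CENP-T needs to sit on DNA, had 0.715 and 0.722 in KO A and KO B, against 1.44 in WT (log2 -0.99, SE 0.11, limma adjusted p = 2.10e-19). So within the CENP-T/W pair Cenpt was higher and Cenpw lower in KO. Cenpx, a small histone-fold protein that forms a complex with CENP-S and also works in DNA repair, had 1.01 and 0.984 in KO A and KO B, against 1.86 in WT (log2 -0.89, SE 0.10, limma adjusted p = 2.93e-17). Its partner Cenps was not called (log2 0.13). Cenpk was lower too (-0.54), while Cenpm and Cenpc1, which encodes the CENP-C backbone of the network, were not called (-0.08 each).

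The outer layers were mixed as well. In the Ndc80 complex, the microtubule-binding rod, Ndc80 (log2 0.79) and Nuf2 (0.27) were higher in KO and Spc24 was lower (-0.47), while Spc25, the partner of Spc24 at the inner end, was not called (0.08). In the Mis12 complex, which links the inner network to Ndc80, Nsl1 was higher (0.95), Pmf1 (-0.51) and Dsn1 (-0.26) were lower and Mis12 was not called (-0.14). In the Ska complex, which holds kinetochores on microtubule ends, Ska3 had 0.982 and 0.895 normalised UMIs per cell in KO A and KO B, against 0.362 in WT, a 2.60-fold ratio (log2 1.35, SE 0.11, limma adjusted p = 1.00e-30). Ska1 was also higher (log2 0.44), and Ska2 was lower (-0.59). In KO cluster 4 alone against WT cluster 3, however, Ska1 stood at -0.13.

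Of the corona proteins and adaptors, the kinesin motor gene Cenpe was higher in KO (log2 0.65) and Zwint, which anchors the checkpoint complex of Rod, Zw10 and Zwilch, was lower (-0.79). Cenpf, a large microtubule-binding protein made late in the cell cycle, had 12.4 and 13.4 normalised UMIs per cell in KO A and KO B, against 11.4 in WT, and was not called (log2 0.18). Spdl1, the dynein adaptor Spindly, was not called either (0.06). Incenp, the scaffold on which Aurora B, survivin and borealin assemble, had 2.12 and 2.27 normalised UMIs per cell in KO A and KO B, against 0.768 in WT. Its ratio of 2.86 (log2 1.50, SE 0.10, limma adjusted p = 3.13e-48) came with the smallest p among the genes called higher. Cenpj, which matches the symbol pattern but encodes a centriole protein, was higher (log2 0.67). With each cell thinned to 5000 UMIs the median of all genes in these clusters shifted to 0.25, and 20 of the 35 were called higher and 5 lower (background 43.1% and 18.6%). Dsn1 (0.0083), Spc24 (-0.17), Pmf1 (-0.22) and Ska2 (-0.25) were then no longer called, and Cenpf and Cenps were called higher.

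**Figure D1:**
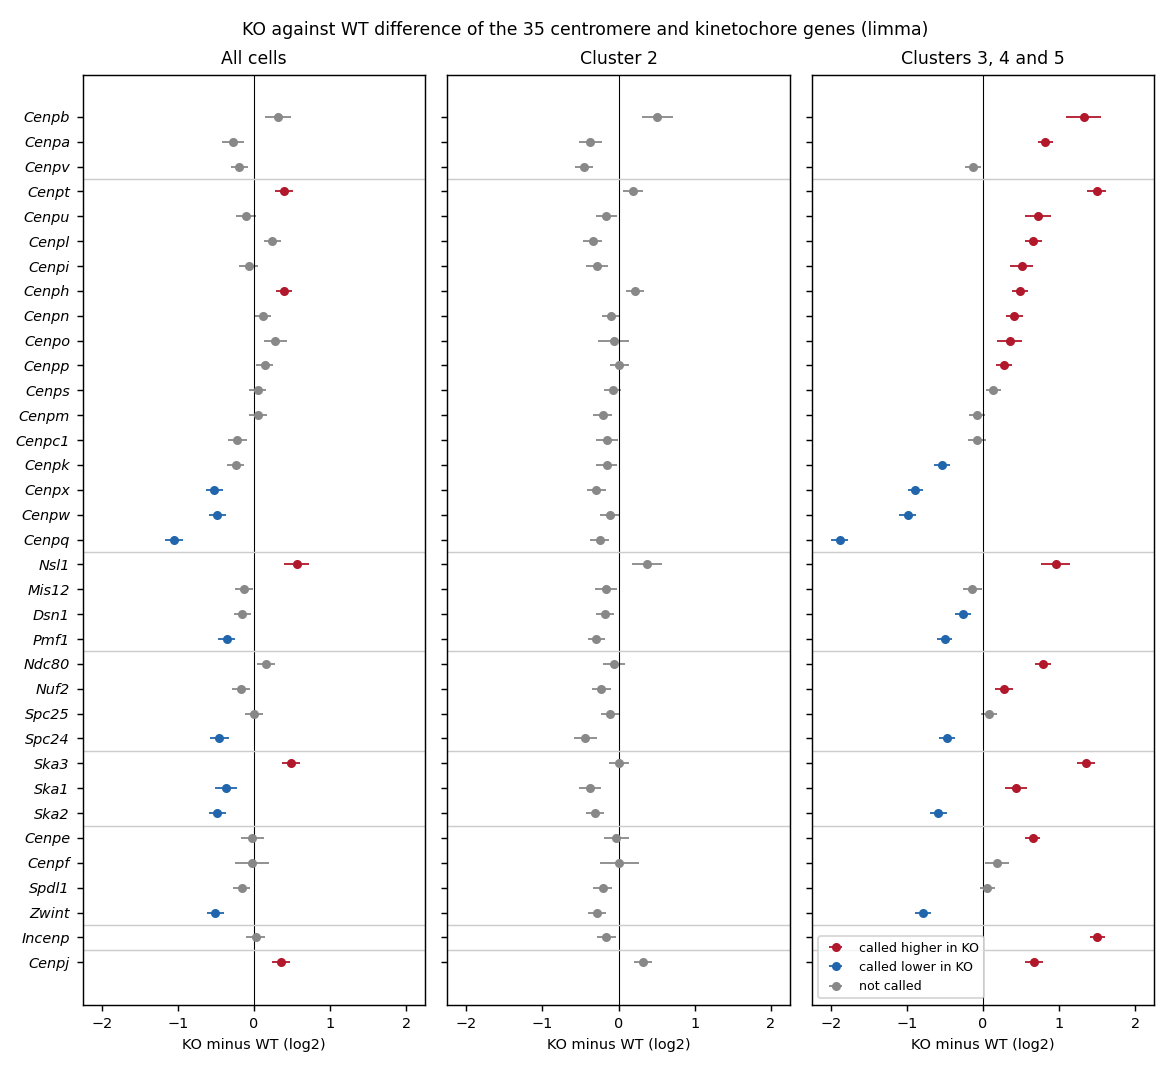
Difference between KO and WT (log2, KO minus WT, horizontal axis) of the 35 genes, grouped by role, in all cells, in cluster 2 and in clusters 3, 4 and 5 together. Points are limma estimates and bars their standard errors; red was called higher in KO, blue lower, grey not called, and in clusters 3, 4 and 5 the values run from -1.88 (Cenpq) to 1.50 (Incenp).

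The promoters of 4 of these genes are printed, Ska3, Cenpq and Cenpw as examples of genes called in either direction and Cenpa as the defining histone variant. Each is a window of 300 bases from RefSeq on GRCm38.p6, 5′ to 3′ on the gene's strand, with 250 bases before and 50 from the start site used. That site lies at the outer end of the gene's annotated span for Cenpq, and 9, 128 and 63 bases inside it for Cenpa, Ska3 and Cenpw. Capitals mark matches on either strand to TTTGAA (the cell cycle genes homology region, CHR), TTTAAA (a variant of it), CCAAT (the box bound by NF-Y) and CNCCTCAG (the motif of STRA8, the inducer of meiosis). The Cenpa promoter lies at chr5:30666636-30666935 (plus strand), that of Ska3 at chr14:57826114-57826413 (minus), that of Cenpq at chr17:40934525-40934824 (minus) and that of Cenpw at chr10:30200491-30200790 (minus).
Cenpa: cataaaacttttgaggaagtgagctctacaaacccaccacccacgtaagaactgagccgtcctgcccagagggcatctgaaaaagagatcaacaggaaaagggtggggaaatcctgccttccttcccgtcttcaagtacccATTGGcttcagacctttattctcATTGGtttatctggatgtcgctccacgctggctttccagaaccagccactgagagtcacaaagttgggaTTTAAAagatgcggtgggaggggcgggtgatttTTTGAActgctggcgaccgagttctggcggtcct
Ska3: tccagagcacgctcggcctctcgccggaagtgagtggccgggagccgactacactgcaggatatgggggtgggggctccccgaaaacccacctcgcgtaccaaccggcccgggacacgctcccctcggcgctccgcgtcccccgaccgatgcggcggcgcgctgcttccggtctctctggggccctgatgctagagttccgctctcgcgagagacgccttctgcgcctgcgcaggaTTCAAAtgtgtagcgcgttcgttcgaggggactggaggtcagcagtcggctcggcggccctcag
Cenpq: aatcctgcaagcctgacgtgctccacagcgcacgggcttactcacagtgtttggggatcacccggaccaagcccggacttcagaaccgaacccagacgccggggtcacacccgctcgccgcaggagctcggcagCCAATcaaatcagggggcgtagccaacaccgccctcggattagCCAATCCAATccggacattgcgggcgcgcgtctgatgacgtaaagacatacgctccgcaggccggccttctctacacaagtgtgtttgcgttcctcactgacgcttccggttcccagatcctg
Cenpw: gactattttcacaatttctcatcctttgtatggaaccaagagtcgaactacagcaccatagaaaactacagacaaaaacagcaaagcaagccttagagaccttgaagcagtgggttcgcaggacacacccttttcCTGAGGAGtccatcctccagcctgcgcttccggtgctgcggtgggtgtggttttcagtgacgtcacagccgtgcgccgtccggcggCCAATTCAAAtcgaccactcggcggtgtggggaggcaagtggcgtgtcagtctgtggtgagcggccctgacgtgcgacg
The Cenpa window holds 1 TTTGAA, 1 TTTAAA and 2 CCAAT matches, and the Ska3 window holds 1 TTTGAA match. The Cenpq window holds 3 CCAAT matches, and the Cenpw window holds 1 match to CCAAT, 1 to TTTGAA that shares bases with it, and 1 to CNCCTCAG.

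RefSeq promoters were found for 31 of the 35 genes. Of these, 20 held CCAAT (64.52%, against 41.06% of all genes with a promoter), 10 held TTTGAA (32.26%, against 20.23%), 7 held TTTAAA (22.58%, against 14.88%) and 6 held CNCCTCAG (19.35%, against 9.121%). Over single promoters, of which a gene may have several, the shares of all 32851 were 37.41%, 17.89%, 13.16% and 7.942% in the same order of motifs. By call in clusters 3, 4 and 5, CCAAT was in 7 of 15 promoters of genes higher in KO, 7 of 8 of genes lower and 6 of 8 of genes not called. CNCCTCAG was in 2 of 15, 4 of 8 (Cenpk, Cenpw, Cenpx and Ska2) and 0 of 8. TTTGAA was in 5 of 15, 2 of 8 and 3 of 8. A match of letters is a description of the window and not a binding site.

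The genes moved along the authors' clusters in different ways, as shown for 8 of them by library. In WT, Incenp had 0.641 normalised UMIs per cell in cluster 3 and 4.09 in cluster 2, a ratio of 0.157. Cenpa had 1.71 in cluster 3 and 7.23 in cluster 2, a ratio of 0.236. Cenpq went the other way, with 1.86 in WT cluster 3 and 0.772 in WT cluster 2, a ratio of 2.42. Of the 35 genes, 14 were at least 1.5-fold lower in WT cluster 3 than in WT cluster 2, and 5 were at least 1.5-fold higher. These 5 were Cenpx (2.48), Cenpq (2.42), Cenpm (2.30), Cenpk (2.22) and Cenpw (1.93), all of the constitutive network. These are descriptions without a test, since the clusters were made on expression in the same cells. The shares of all genes past these limits were not counted, so the counts cannot be read as particular to the 35.

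In the KO libraries the later cells were those of clusters 4 and 5, pooled here and set against cluster 2. Incenp stood at 0.578 and 0.620 times its cluster 2 level in KO A and KO B, against the WT ratio of 0.157. Cenpa stood at 0.540 and 0.606, against the WT ratio of 0.236. Ska3 stood at 1.16 and 1.24 in KO A and KO B, against a WT ratio of cluster 3 to cluster 2 of 0.444. Cenpq stood at 0.749 and 0.744, against the WT ratio of 2.42. Cenpm stood at 2.51 and 2.44 in KO A and KO B, against the WT ratio of 2.30. In both KO libraries 17 genes were above and 17 below their cluster 2 level, with 6 at least 1.5-fold higher and 6 at least 1.5-fold lower in each. Here too the shares of all genes were not counted.

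**Figure D2:**
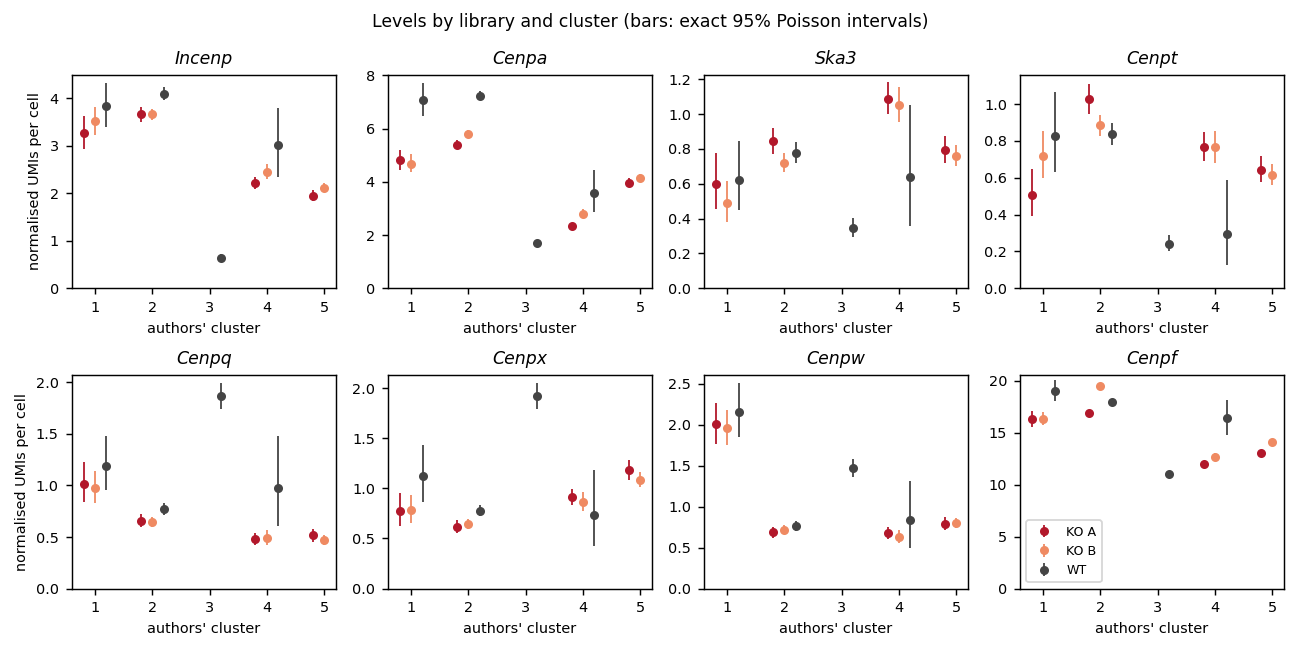
Normalised UMIs per cell (vertical axis) of 8 genes by the authors' cluster (horizontal axis) in KO A, KO B and WT, with exact 95% Poisson intervals that cover counting error only. WT cluster 3 is lowest for Incenp (0.641) and Cenpa (1.71) and highest for Cenpq (1.86) and Cenpx (1.92), and the wide WT intervals in cluster 4 rest on 24 cells.

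**Figure D3:**
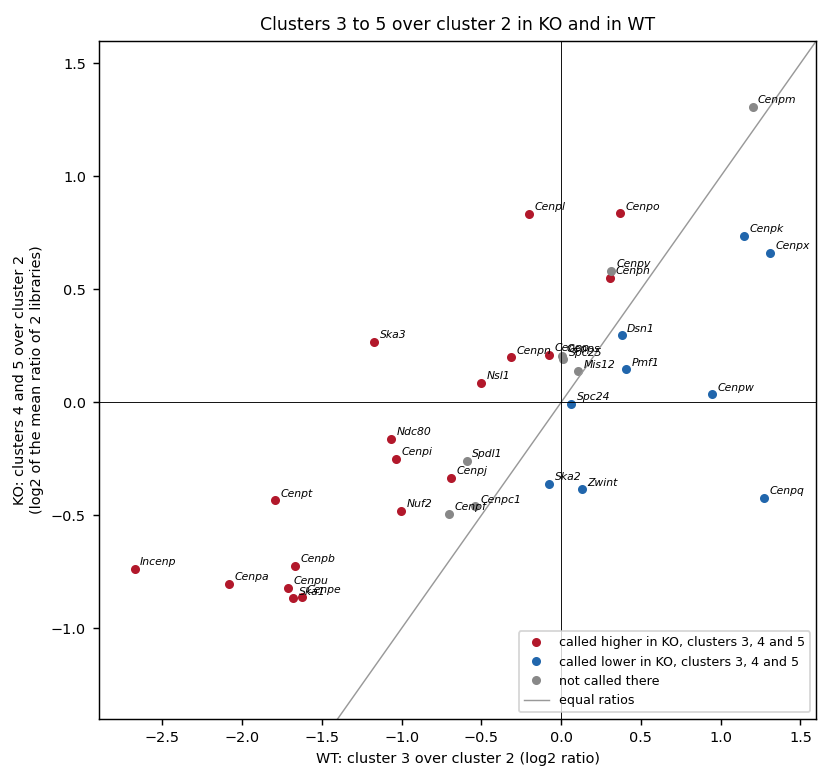
Ratio of the later clusters to cluster 2 on a log2 scale, for KO (clusters 4 and 5, vertical axis, mean ratio of both libraries) and for WT (cluster 3, horizontal axis), with 1 point per gene. Points above the grey line of equal ratios have the larger ratio in KO; Cenpq, Cenpw and Zwint lie below it, and Incenp, Ska3 and Cenpt above it.

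Within cluster 4, the one cluster of the 3 that held both KO cells and more than 1 WT cell, the values did not all lie apart in the same way. Incenp had 2.21 and 2.45 normalised UMIs per cell in KO A and KO B, against 3.01 in the 24 WT cells (exact Poisson interval 2.35 to 3.79). Cenpa had 2.32 and 2.79 in KO A and KO B, against 3.59 (2.86 to 4.45) in WT. Cenpe had 2.51 and 2.66 in KO A and KO B, against 3.86 (3.11 to 4.74) in WT. For Incenp, Cenpa and Cenpe WT was the highest library in cluster 4, the opposite order to clusters 3, 4 and 5 together. The KO B value of Incenp lay inside the WT interval. Cenpq had 0.478 and 0.491 in KO A and KO B, against 0.976 (0.611 to 1.48) in WT, and Cenpt had 0.768 and 0.765, against 0.297 (0.128 to 0.585) in WT. Cenpl had 1.19 and 1.24 in KO A and KO B, against 0.880 (0.537 to 1.36) in WT. Both KO values of Cenpl lay inside that interval. Cenpq, Cenpt and Cenpl therefore kept in cluster 4 the order that they had in the later clusters together. The intervals cover counting error only, and the 24 cells come from 1 library.

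Between the KO clusters, 20 genes were higher in cluster 5 than in cluster 4 in both libraries and 10 were lower in both. Ska1 had the largest ratio, with 2.08 and 2.04 in KO A and KO B. Spc24 stood at 1.74 and 1.50 and Cenpa at 1.71 and 1.48. Ska3 was the lowest, at 0.730 and 0.723, and no gene was 1.5-fold lower in either library. The shares of all genes were not counted. Median UMIs per cell in KO A and KO B were 16099 and 16156 in cluster 5, against 8149 and 8563 in cluster 4. The median mitochondrial share was 4.73% and 4.28% in cluster 5, against 10.4% and 9.02% in cluster 4. The part of either in these ratios was not tested.

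In cluster 2, where all 3 libraries held more than 500 cells, limma called none of the 35 genes. It called 2.87% of the 9435 genes tested there higher in KO and 1.43% lower. At an unadjusted p under 0.05 limma had 11 of the 35, 2 higher and 9 lower. The share of all genes at an unadjusted p under 0.05 was not counted for any method, so such counts have no background here. Of the 35 log2 differences 27 were below 0, with a median of -0.16, against 0.03 over all genes tested. edgeR on the recovered counts called 7 of the 35, all lower, with TMM scaling (background 6.80% higher and 6.77% lower) and 8, all lower, with RLE size factors (background 6.22% and 7.67%). TMM-scaled sums in limma gave 7, all lower (background 8.60% and 6.71%). DESeq2 gave no adjusted p for 24 of the 35 and called 0 of the rest (background 0.420% and 2.14%), with 5 at an unadjusted p under 0.05. Cenpv, a protein implicated in chromosome alignment, had the smallest p in cluster 2, with 0.809 and 0.788 normalised UMIs per cell in KO A and KO B, against 1.09 in WT (log2 -0.45, limma adjusted p = 0.0533). Spc24 had 1.53 and 2.02 in KO A and KO B, against 2.39 in WT, so that KO A and KO B differed more from each other than KO B did from WT (log2 -0.44, limma adjusted p = 0.106). Cenpl had 0.628 and 0.627 in KO A and KO B, against 0.796 in WT (log2 -0.34, limma adjusted p = 0.122). Cenpj, with 0.860 and 0.898 against 0.701, Cenpb, with 0.154 and 0.157 against 0.106, and Nsl1, with 0.167 and 0.172 against 0.128, had the smallest p above 0 (log2 0.32, 0.51 and 0.38; limma adjusted p = 0.127, 0.154 and 0.267). Red blood cell markers summed to 5.07 normalised UMIs per cell in KO A cluster 2, against 0.0137 in KO B and 0.00829 in WT, with 1 KO A cell of that cluster holding at least 10 somatic UMIs.

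Whether the KO difference was the same in the later clusters and in cluster 2 was tested as an interaction, on the difference between both classes within each library. Of the 35 genes, 14 had a higher KO difference in clusters 3, 4 and 5 than in cluster 2 and 4 a lower one, against 26.9% and 18.0% of the 8911 genes tested. The median was 0.27 over the 35 and 0.08 over all genes. Incenp (log2 1.66, SE 0.20, limma adjusted p = 0.00147), Ska3 (1.35, SE 0.13, 0.000891) and Cenpt (1.31, SE 0.16, 0.00160) had the smallest p among those higher. In cluster 2 Ska3 had 0.844 and 0.720 normalised UMIs per cell in KO A and KO B, against 0.778 in WT, so there the groups overlapped. Incenp in cluster 2 had 3.66 in each KO library, against 4.09 in WT. Cenpq (-1.64, SE 0.13, limma adjusted p = 0.000561), Cenpw (-0.88, SE 0.13, 0.00294) and Cenpx (-0.59, SE 0.14, 0.0159) had the smallest p among those lower, with Zwint the other (-0.51). With cells thinned to 5000 UMIs, 11 were called, 9 higher and 2 lower (background 19.9% and 7.15%), and Cenpx (-0.43) and Zwint (-0.36) were not among those lower.

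Cluster 1 is small and holds the somatic markers given above. There 4 of the 35 genes were called lower in KO and 0 higher, against 2.20% and 0.644% of the 11180 genes tested. The median log2 difference was -0.26 over the 35 genes, 31 of them below 0, and -0.02 over all genes tested. Cenpb had 0.263 and 0.349 normalised UMIs per cell in KO A and KO B, against 0.723 in WT (log2 -1.22, SE 0.29, limma adjusted p = 0.0193). Cenpm, a member of the CENP-H/I/K/M group, had 1.16 and 1.04 in KO A and KO B, against 1.87 in WT (log2 -0.77, SE 0.18, limma adjusted p = 0.0205). Cenph, of the same group, had 0.545 and 0.598 in KO A and KO B, against 1.08 in WT (log2 -0.91, SE 0.22, limma adjusted p = 0.0234). Cenpa had 4.81 and 4.68 in KO A and KO B, against 7.09 in WT (log2 -0.58, SE 0.15, limma adjusted p = 0.0380). WT was the highest library for all 4, and KO and WT values did not overlap for 75.0% of all genes tested in cluster 1. Cenpa, Cenpb and Cenph were thus lower in KO in cluster 1 and higher in KO in clusters 3, 4 and 5. With cells thinned to 5000 UMIs Cenph stood at 0.042 in cluster 1. Without the 10 KO A, 13 KO B and 10 WT cells of cluster 1 that had at least 10 UMIs of somatic markers, limma called 3 of the 35, all lower (background 1.28% higher and 2.48% lower), and Cenpb (-0.73) and Cenpm (-0.30) were no longer among them. edgeR with TMM scaling called 0 of the 35 in cluster 1 (background 0.105% and 0.639%), with 6 at an unadjusted p under 0.05. DESeq2 called 0 (background 0.00% and 0.0248%), with 1 at an unadjusted p under 0.05. For neither method was the share of all genes at that unadjusted limit counted.

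Over all cells of each library, 5 genes were called higher in KO and 8 lower, and 22 were not called, with 18.3% and 14.8% of the 9637 genes tested as background. The mixture of clusters differs between the libraries, and fewer cells of a type and less RNA per cell cannot be told apart in these sums. Cenpq had 0.572 and 0.574 normalised UMIs per cell in KO A and KO B, against 1.20 in WT (log2 -1.05, SE 0.11, limma adjusted p = 1.24e-07). Cenpx had 0.863 and 0.825 in KO A and KO B, against 1.21 in WT (log2 -0.52, SE 0.11, limma adjusted p = 0.000851), but was not called with cells thinned to 5000 UMIs (-0.25). Zwint had 0.854 and 0.853 in KO A and KO B, against 1.22 in WT (log2 -0.51, SE 0.11, limma adjusted p = 0.000997). Both KO libraries lay below WT for all 3 genes, and KO and WT values did not overlap for 86.4% of all genes tested. The other genes called lower were Cenpw, Ska2, Spc24, Pmf1 and Ska1. With cells thinned to 5000 UMIs, 7 of the 35 were called higher and 2, Cenpq and Zwint, lower (background 22.3% and 7.17%).

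The genes called higher over all cells were Ska3, Cenph, Cenpt, Nsl1 and Cenpj. Ska3 had 0.917 and 0.799 normalised UMIs per cell in KO A and KO B, against 0.608 in WT (log2 0.49, SE 0.12, limma adjusted p = 0.00248). Cenph had 1.20 and 1.18 in KO A and KO B, against 0.901 in WT (log2 0.39, SE 0.11, limma adjusted p = 0.00766). Cenpt had 0.819 and 0.774 in KO A and KO B, against 0.603 in WT (log2 0.40, SE 0.11, limma adjusted p = 0.00936). Both KO libraries lay above WT for all 3, to be read against the same 86.4%. DESeq2 called none of these 5 (background 4.74% higher and 6.63% lower) and 6 of the lower genes, and Cenpt was also not called by edgeR (log2 0.25 with TMM scaling). All 5 were also called higher in clusters 3, 4 and 5, and 7 of the 8 lower genes were called lower there too. The exception was Ska1, with 0.427 and 0.576 in KO A and KO B, against 0.643 in WT over all cells (log2 -0.37, SE 0.14, limma adjusted p = 0.0424). In clusters 3, 4 and 5 Ska1 had 0.310 and 0.433 in KO A and KO B, against 0.268 in WT (limma log2 0.44, SE 0.15, adjusted p = 0.00509).

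Summed over the 35 genes, a cell thinned to 5000 UMIs held a median of 23 UMIs of these genes in KO A and 25 in KO B, against 23 in WT. Split by cluster, the median was 21 and 23 in cluster 4 and 24 and 24 in cluster 5 of KO A and KO B, against 18 in WT cluster 3, where the quartiles were 15 and 22. In cluster 2 it was 25 and 27 in KO A and KO B, against 28 in WT. In WT cluster 4 it was 23.5 over the 24 cells.

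**Figure D4:**
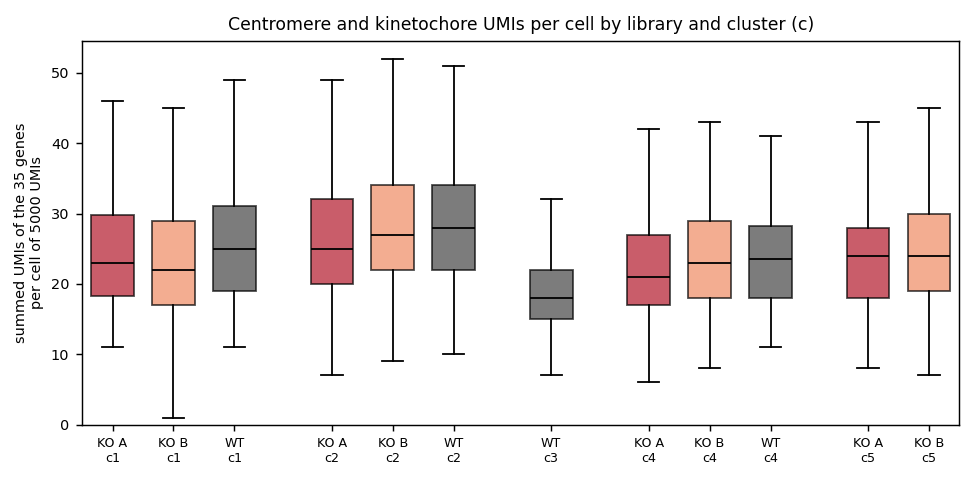
Summed UMIs of the 35 genes per cell thinned to 5000 UMIs (vertical axis) by library and cluster (horizontal axis); boxes give quartiles and the median, and whiskers reach the farthest cell within 1.5 box lengths. WT cluster 3 has the lowest median, 18, against 21 to 24 in KO clusters 4 and 5.

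A list of 20 M-phase genes that holds none of the 35, such as the cyclin gene Ccnb1 and the kinesin gene Kif20a, was summed per cell to rank cells within each library and cluster. In cluster 2 the median cell held 35 and 38 of its UMIs in KO A and KO B, against 40 in WT. In clusters 4 and 5 it held 27 and 28 in KO A and 33 and 31 in KO B, against 17 in WT cluster 3. The median of the 24 WT cells of cluster 4 was 38.5, above both KO libraries in that cluster. So the median sums of the M-phase list and of the 35 genes were both lowest in WT cluster 3. Taken singly, 15 of the 35 genes were above their WT cluster 2 level there and 20 below. The part of the M-phase list in the KO difference was not tested. In WT cluster 2 the 163 of 654 cells highest for the M-phase list held 2.47 times as many Cenpa UMIs as the 163 lowest. Cenpe (2.14), Cenpc1 (2.02) and Cenpf (1.95) followed. Cenpx (0.662) and Mis12 (0.634) were lower in the M-phase-high cells, and Cenpq (0.970) and Cenpw (0.966) were near 1. The Mis12 ratio rests on 26 against 41 UMIs and was not stable elsewhere. It was 1.23 in WT cluster 3, and 0.783, 1.32 and 1.38 in clusters 2, 4 and 5 of KO B. In the same clusters of KO A it was 0.906, 0.968 and 0.842. The median ratio was 1.37 over the 18 genes called higher in KO in clusters 3, 4 and 5, 0.966 over the 9 called lower and 1.17 over the other 8.

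Across the 35 genes, the M-phase ratio in WT cluster 2 and the log2 ratio of WT cluster 3 to cluster 2 had a Pearson r of -0.58 and a Spearman rho of -0.54. With the KO-minus-WT log2 difference in clusters 3, 4 and 5 the r was 0.44 and the rho 0.41. These are descriptions across genes that share cells and libraries, and genes are not independent replicates. Cenpu lay apart, with a ratio of 0.780 and a WT ratio of cluster 3 to cluster 2 of 0.305. In KO clusters 4 and 5 the M-phase ratio of Cenpa was 3.77 and 3.60 in KO A and 5.98 and 4.17 in KO B, against 4.56 in WT cluster 3, and that of Incenp was 2.68 and 4.17 in KO A and 3.19 and 2.72 in KO B, against 5.55 in WT cluster 3.

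**Figure D5:**
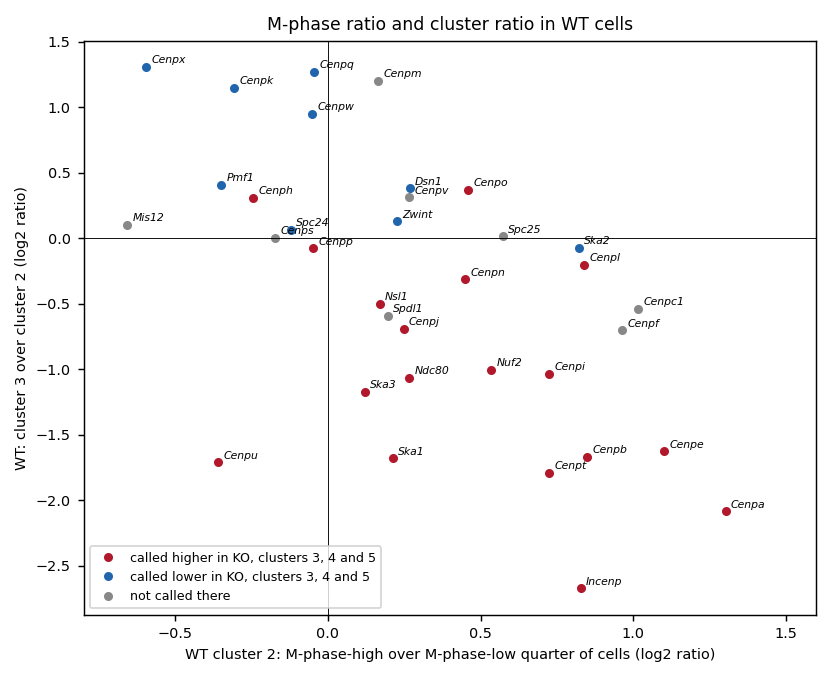
The 163 M-phase-high over the 163 M-phase-low cells of WT cluster 2 (horizontal axis, log2 ratio) against WT cluster 3 over cluster 2 (vertical axis, log2 ratio), 1 point for each of the 35 genes. Genes called higher in KO in clusters 3, 4 and 5 (red) lie mostly below 0 on the vertical axis, with Cenpa (2.47 and 0.236 as plain ratios) at the lower right, and genes called lower (blue) lie mostly above 0. WT cluster 3 values enter both the vertical axis and the call, so height and colour are not independent.

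Of 31 other kinetochore, checkpoint and centromere-loading genes on a fixed list, 29 were tested in clusters 3, 4 and 5, of which 18 were called higher in KO and 5 lower, with 37.4% and 29.1% of all genes tested as background. Plk1, the Polo kinase of mitotic entry, had 2.84 and 2.86 normalised UMIs per cell in KO A and KO B, against 0.529 in WT (log2 2.41, limma adjusted p = 1.03e-120). Bub3, a checkpoint protein, had 1.44 and 1.68 in KO A and KO B, against 0.273 in WT (log2 2.47, limma adjusted p = 3.97e-111). Mad2l1, the checkpoint protein MAD2, had 0.365 and 0.453 in KO A and KO B, against 0.753 in WT (log2 -0.87, limma adjusted p = 2.37e-11), and Bub1, a checkpoint kinase, had 4.33 and 4.14, against 7.28 in WT (log2 -0.78, limma adjusted p = 1.13e-10). In cluster 2 limma called none of 28 (background 2.87% higher and 1.43% lower), and in cluster 1 it called Birc5 (log2 -0.78) and Mad2l1 (-0.67) lower, of 29 (background 2.20% lower). Over all cells 6 were called higher, with the smallest p for Mad2l1bp (log2 1.39) and Haspin (0.72), and 3 lower, with the smallest p for Mad2l1 (-0.60) and Oip5 (-0.43), against a background of 18.3% and 14.8%.

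The authors' deposited U-motif score, a value per gene, had a median of 0.0117 over the 35 genes and 0.0110 over all 14103. Cenpc1 (0.059), Cenpj (0.056) and Cenpk (0.051) stood at the 99.4, 99.3 and 99.0 percentile of all genes. In clusters 3, 4 and 5 they were not called, called higher and called lower in KO. The median score was 0.0113 over the 18 genes called higher, 0.0110 over the 9 called lower and 0.0135 over the other 8.

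All 35 genes were matched by symbol to RefSeq loci on GRCm38.p6. Of these, 13 overlapped another annotated gene and 9 a gene that is also in the deposited table, among them Ska3 with Mrpl57, Cenpx with Lrrc45 and Nsl1 with Tatdn3. These are overlaps of annotated spans, taken without regard to strand. The sources do not say whether counting used strand. How far reads in the shared stretches of these 9 genes were counted for a neighbour was not tested. Incenp lies at chr19:9872295-9899489 and Cenpq at chr17:40920809-40934574, neither overlapping a gene of the table.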

How the data were processed

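Testis cells of 2 KO libraries and 1 WT library were analysed. Cell Ranger 3.0.2, Scanpy and the builds mm10 and GRCm38 are named in the submitters' processing notes. The authors deposited a matrix of natural log values, ln(1 + UMI count over size factor), for 4528 cells and 14103 genes. Their deposited cell table adds UMI and gene counts, a mitochondrial fraction, a size factor (a score), a library and a cluster per cell, and their deposited gene table a U-motif score. Exponentiating and multiplying by the size factor returned whole counts (within 0.001) for 100% of values, with 99.94% of the deposited UMI total. The cells as deposited had at least 3000 genes, at least 5444 UMIs and at most 19.96% mitochondrial UMIs, and all were kept. Neither KO library could be tied to a particular KO sample.

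For each library and class of cells, count over size factor was averaged over cells (normalised UMIs per cell). limma 3.58.1 (R 4.3.3; empirical Bayes with trend, Benjamini-Hochberg) was run on log2 of this mean plus 0.01, which compresses changes of low genes, wherever the mean over libraries reached 0.05. Folds are ratios of means. Alternatives were edgeR 4.0.16 or DESeq2 1.42.0 on summed recovered counts, and other pseudocounts, filters, scalings, cells and libraries. The steps were checked on simulated data. No doublet caller was run, and leaving out the 5% of cells with the most UMIs per library stands in for it. Members, roles, lists and tests were chosen with earlier results of these data known. Named in full are the 3 genes with the smallest p per direction and comparison, and those called in opposite directions. Promoters and loci are RefSeq's.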

Additional observations from a re-analysis of the deposited data

Results flagged for a closer look

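The KO difference was not the same in clusters 3, 4 and 5 as in cluster 2 for 18 of the 35 genes, by the interaction test in limma at an adjusted p under 0.05, with 26.9% of all genes tested called higher and 18.0% lower. The values are the KO-minus-WT log2 difference in clusters 3, 4 and 5 minus that in cluster 2. They were above 0 for Incenp (1.66), Ska3 (1.35), Cenpt (1.31), Cenpa (1.19), Cenpl (1.00), Cenpu (0.88), Ndc80 (0.85), Cenpb (0.81), Ska1 (0.81), Cenpi (0.79), Cenpe (0.68), Nsl1 (0.58), Cenpn (0.51) and Nuf2 (0.50). They were below 0 for Cenpq (-1.64), Cenpw (-0.88), Cenpx (-0.59) and Zwint (-0.51). The adjusted p-values ran from 0.000561 for Cenpq to 0.0328 for Nuf2. Nearly all WT cells of the later class were in cluster 3 and all KO cells were in clusters 4 and 5, so genotype and cluster cannot be told apart in these values.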

How the results depend on the processing

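No paired analysis was possible, since there was 1 WT library and no label pairs a KO library with it. Over all cells 13 of the 35 genes were called, and DESeq2 called 6. In cluster 1, with 4 called, the count was 0 with no filter on low values, where 0.00% of all genes were called. It was also 0 with edgeR RLE (background 0.0954% higher and 0.563% lower), edgeR TMM (0.105% and 0.639%) and DESeq2 (0.00% and 0.0248%). TMM-scaled sums in limma called 2, both lower (0.939% and 1.09%). Thinned cells gave 2, with 1 higher (Dsn1) and 1 lower (1.99% and 1.12%). The count was 7, all lower, without the 5% of cells with the most UMIs (3.28% and 5.21%). In cluster 2, with 0 called, it was 7 with TMM-scaled sums in limma (background 8.60% higher and 6.71% lower), 7 with edgeR TMM (6.80% and 6.77%), 8 with edgeR RLE (6.22% and 7.67%), 1 without the cells with the most UMIs (4.70% and 3.08%) and 1 with thinned cells (5.55% and 1.35%). In clusters 3, 4 and 5, with 27 called, DESeq2 called 17. The interaction called 18, and 11 with thinned cells. Signs turned for Cenph in cluster 1 (0.042), Dsn1 in clusters 3, 4 and 5 (0.0083) and Nsl1 in the interaction (-0.063) with thinned cells, and for Ska1 (-0.13) in KO cluster 4 against WT cluster 3; the cause was not tested. Thinning moved the median log2 difference of all genes from 0.02 to 0.13 over all cells, from -0.02 to 0.05 in cluster 1, from 0.03 to 0.09 in cluster 2, from 0.08 to 0.25 in clusters 3, 4 and 5 and from 0.08 to 0.18 in the interaction. Leaving out either KO library, the median over the 35 genes ran from -0.13 to -0.04 over all cells, from -0.29 to -0.23 in cluster 1, from -0.17 to -0.14 in cluster 2 and from 0.20 to 0.28 in clusters 3, 4 and 5 (main value 0.27). With 1 library a group those are values without a test. Called under every alternative with a test were Cenpq and Zwint over all cells, and in clusters 3, 4 and 5 Cenpa, Cenpb, Cenpe, Cenpj, Cenpk, Cenpl, Cenpq, Cenpt, Cenpw, Cenpx, Incenp, Ndc80, Ska3 and Zwint. These alternatives did not include KO against WT within cluster 4 alone, where WT was the highest library for Cenpa, Cenpe and Incenp, among others. The leave-out of cells with somatic markers was chosen after seeing the data. Cluster 1 rests on at most 90 cells a library, and WT cluster 4 on 24, which limits what can be seen there.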
